A study of Mus musculus with 141 samples.

Results

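The 10 lineage transcription factors described here are the genes *Hopx*, *Etv5*, *Cebpa*, *Gata6*, *Nkx2-1*, *Foxa1*, *Foxa2*, *Klf5*, *Sox2* and *Foxj1*, chosen by name from the 17136 genes of the read count matrix. They were compared among tdTomato+ lung epithelial cells of 1 male mouse of 4 months. Each cell was caught, lysed and turned into cDNA in its own site of a microfluidic chip (Fluidigm C1), and sites are named by chip column and row. The mouse carried the genotype ACID;R26tdTomato on a strain labelled 129SV, and all cells had been sorted as CD31- CD45- E-cadherin+ tdTomato+. ACID places Cre recombinase (with an IRES-DsRed reporter) at the locus of *Aqp5*, an aquaporin of type 1 cells, and R26tdTomato is a Cre-dependent reporter. A cell in which this Cre has once recombined the reporter carries tdTomato from then on, whatever it is at the time of the sort. The authors propose that some cells with *Aqp5* lack *tdTomato*. The labels name every cell an alveolar type 1 cell, although 46 of the 92 cells used were high in type 1 markers (the list is given with the classes). There was no second condition, and all comparisons are between classes of cells within this 1 animal.

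The 92 cells with less than a 0.15 share of reads on mitochondrial genes were kept, 49 were left out, and the kept cells were placed in 3 classes by 1 gene each. Type 1 cells (45 cells, 48.9%, 95% Clopper-Pearson interval 38.3 to 59.6%) had at least 5000 CPM (reads of a gene scaled by all reads of the cell or class) of *Ager*, a receptor abundant in alveolar type 1 cells. Type 2 cells (11 cells, 11.96%, interval 6.12 to 20.4%) had at least 8000 CPM of *Sftpc*, the surfactant protein C gene. The rest (36 cells, 39.1%, interval 29.1 to 49.9%) passed neither cut, and no cell passed both. The *Ager* cut fell between cells at 1402 and 9335 CPM and the *Sftpc* cut between cells at 7774 and 25437 CPM. Cells were not treated as replicates of a condition: with 1 mouse there is no test between classes. Intervals of levels and ratios come from read counts alone, and those of shares from numbers of cells alone. Reads were counted after PCR without molecular identifiers, so intervals from reads are too narrow even for counting error. No interval covers the spread between mice. Whether intervals overlap is a description of these cells and no test.

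The airways and alveoli of the lung arise from 1 sheet of endoderm that is split early into a proximal part, which makes club, basal and ciliated cells, and a distal part, which makes the flat type 1 cells of gas exchange and the surfactant-making type 2 cells. *Nkx2-1* marks this whole epithelium, the forkhead factors *Foxa1* and *Foxa2* act broadly in it, *Sox2* is the classical proximal factor, and *Foxj1* switches on the genes of motile cilia. *Etv5*, an ETS factor downstream of FGF signalling, and *Cebpa*, a C/EBP factor, are known from type 2 cells, *Gata6* and *Klf5* from alveolar differentiation, and *Hopx*, an atypical homeodomain protein that does not bind DNA itself, from type 1 cells.

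Marker lists that hold none of the 10 factors were set against the classes; a cell is high in a list where at least 0.5 of its markers exceed 100 CPM. All 45 type 1 cells were high in the list of 12 alveolar type 1 (AT1) markers, 0 type 2 cells and 1 cell of the rest. The alveolar type 2 (AT2) list of 11 markers was high in 10 of 11 type 2 cells. The exception, at chip column 20 and row 17, had the lowest *Sftpc* of the class, 25437 CPM against 114388 CPM in the next cell. The rest was mixed: 13 cells were high in the ciliated list, 15 others in the club list and 8 in neither, of which 2 were high in the basal and 2 in the fibroblast list. The endothelial list was high in 0 cells. With 2 of 6 macrophage and 1 of 5 neuroendocrine markers in the table, those lists could not be called in any cell. Of the macrophage markers *Ptprc*, the gene of the CD45 used in the sort, had no read, whereas *Csf1r* stood at 348 CPM in type 1 cells (0 to 1468 CPM in single cells), 0.154 CPM in type 2 cells and 2.07 CPM in the rest. Its part in the differences between classes was not tested. In all, 9 of 92 cells were high in 2 or more lists. Reads per cell ranged from 142003 to 2170760, with medians of 468718 in type 1 cells, 413806 in type 2 cells and 693389 in the rest. To compare detection at equal depth, 90000 reads were drawn from every cell. *tdTomato* itself was read in 39 of 45 type 1 cells, 30 of 36 cells of the rest and 2 of 11 type 2 cells.

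Sequences upstream of the transcription starts are given for 4 factors whose levels differed over 64-fold between classes, since these ratios carry the comparison. RefSeq starts on GRCm38.p6 were matched for 7 of the 10 factors, with 11 starts in all. *Foxj1*, *Klf5* and *Gata6* were not matched. The window is the 250 bases before a start, 5′ to 3′ on the gene's strand, less any bases that GENCODE vM21 places in an exon of the gene itself. Capitals mark the letters of 7 short motifs searched on both strands. *Hopx* has 2 starts on the minus strand of chromosome 5, with windows at chr5:77115124-77115373 and, inside the gene, chr5:77095278-77095517. *Etv5* lies on the minus strand of chromosome 16; its window at chr16:22439720-22439820 is the stretch left after 149 of the 250 bases, which lie in GENCODE exons of the gene, were taken off, and its inner start has the window chr16:22438369-22438618. *Cebpa* (chr7:35119043-35119292) and *Sox2* (chr3:34649745-34649994) lie on the plus strands of chromosomes 7 and 3.
Hopx, outer start: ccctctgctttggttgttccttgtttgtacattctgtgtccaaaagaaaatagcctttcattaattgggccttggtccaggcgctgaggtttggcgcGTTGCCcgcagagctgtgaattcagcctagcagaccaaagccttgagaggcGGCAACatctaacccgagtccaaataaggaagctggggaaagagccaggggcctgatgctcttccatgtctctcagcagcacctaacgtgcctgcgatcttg
Hopx, inner start: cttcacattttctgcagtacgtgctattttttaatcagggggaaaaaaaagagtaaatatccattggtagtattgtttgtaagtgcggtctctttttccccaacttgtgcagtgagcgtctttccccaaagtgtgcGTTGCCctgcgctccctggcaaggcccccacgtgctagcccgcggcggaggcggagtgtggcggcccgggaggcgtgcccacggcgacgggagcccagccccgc
Etv5, outer start: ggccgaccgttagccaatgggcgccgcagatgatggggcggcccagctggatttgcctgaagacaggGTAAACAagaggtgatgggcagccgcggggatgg
Etv5, inner start: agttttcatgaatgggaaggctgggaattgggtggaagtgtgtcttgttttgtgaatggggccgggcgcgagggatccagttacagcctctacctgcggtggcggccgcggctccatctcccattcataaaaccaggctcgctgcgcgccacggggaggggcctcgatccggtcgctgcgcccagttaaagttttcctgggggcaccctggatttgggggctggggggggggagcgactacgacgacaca
Cebpa: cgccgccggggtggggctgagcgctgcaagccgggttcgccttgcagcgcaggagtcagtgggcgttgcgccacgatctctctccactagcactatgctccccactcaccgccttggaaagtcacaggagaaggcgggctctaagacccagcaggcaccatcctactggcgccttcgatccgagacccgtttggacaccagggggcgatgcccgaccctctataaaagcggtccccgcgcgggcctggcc
Sox2: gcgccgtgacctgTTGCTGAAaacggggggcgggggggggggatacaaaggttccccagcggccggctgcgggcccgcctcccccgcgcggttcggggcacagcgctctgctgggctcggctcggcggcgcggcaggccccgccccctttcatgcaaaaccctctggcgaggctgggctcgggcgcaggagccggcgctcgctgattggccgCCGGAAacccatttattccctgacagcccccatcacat

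In the *Hopx* windows the capitals mark GTTGCC, part of an RFX binding site. It occurs 2 times at the outer start (1 of them on the opposite strand) and 1 time at the inner start. Shares of windows are of 32851 RefSeq windows of 250 bases, from which no exon bases were taken off, and 10.4% hold it. In the outer *Etv5* window they mark TGTTTAC, a forkhead core, on the opposite strand, which 3.17% of windows hold. The *Sox2* window holds TTGCNNAA, a C/EBP core found in 9.56% of windows, and CCGGAA, an ETS core found in 12.03%. None of the marked motifs overlaps another. The core of NKX2 factors, CAAGTG, is in 11.6% of windows. The core of GATA factors, AGATAA, is in 9.99%. The core of SOX factors, ACAATGG, is in 3.02%. None of these matched in the 6 windows shown. The *Cebpa* window and the inner *Etv5* window matched no motif at all. A match describes these letters and not a bound site.

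*Hopx* was the one factor of the set read in every type 1 cell. Its level was 5733 CPM in type 1 cells, the CPM of summed reads (Poisson interval 5703 to 5764 CPM). In chip columns 1 to 10 and 11 to 20 this level was 6049 and 5317 CPM, both outside the interval. Single type 1 cells ran from 1276 CPM through a median of 5656 CPM to 11574 CPM, so every one of the 45 held many reads. In type 2 cells the level was 37.5 CPM, with single cells from 0 to 280 CPM around a median of 5.28 CPM. The cells of the rest held 156 CPM, from 0 to 3345 CPM around a median of 21.8 CPM. Type 1 and type 2 cells did not overlap in *Hopx*, which held for 1 of the 10 factors and for 0.134% of the 8975 genes with at least 10 CPM. Against the rest there was overlap, from 2 ciliated-list cells at 1863 and 3345 CPM. Without overlap between single cells stood 0 of the 10 factors in type 1 cells against the rest (0.0111% of genes), in type 2 cells against the rest (0.0334%) and in ciliated-list cells against the other cells of the rest (0.0557%).

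**Figure D1:**
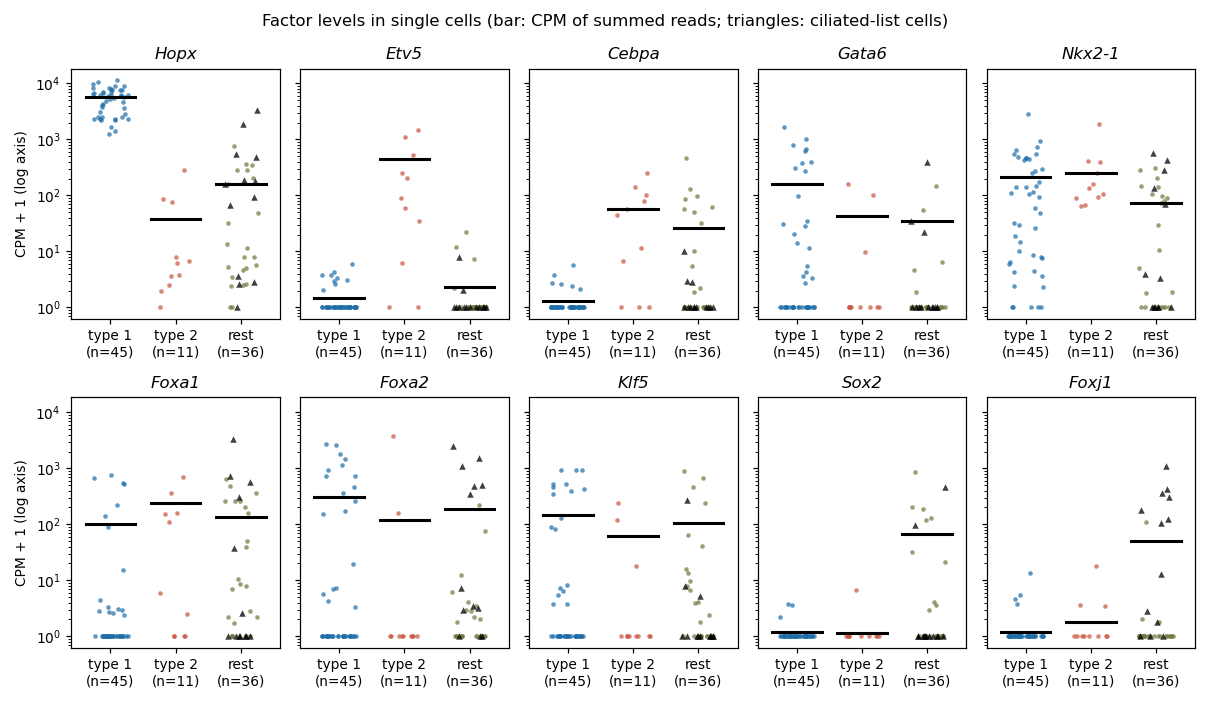
Level of each factor in the 92 kept cells, as CPM + 1 on a log axis, by class (45 type 1, 11 type 2 and 36 other cells); the black bar is the CPM of summed reads and triangles are the 13 ciliated-list cells. *Hopx* fills all type 1 cells from 1276 CPM upward, *Etv5* rises above 20 CPM in 8 type 2 cells and in 1 other cell, and *Sox2* and *Foxj1* rise above 20 CPM only in the rest.

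The log2 ratio of *Hopx* CPM was 7.26 (7.07 to 7.44) for type 1 against type 2 cells and 5.20 (5.15 to 5.24) for type 1 cells against the rest. For scale, the median log2 ratio of all genes in these comparisons was 0.93 and 0.05, and -1.05 for type 2 cells against the rest. In type 2 cells 1 cell, at chip column 6 and row 30, held 82.3% of the *Hopx* reads, and the level without it was 7.46 CPM. The lower level in type 2 cells than in the rest, a log2 ratio of -2.06 (-2.25 to -1.87), rested on few cells: it was -4.23 without the cell with most reads in each class, and -0.16 with the *Sftpc* cut at 0.5 times its value, which moves 3 cells of the rest into type 2. Detection separated the classes less than level did. At equal depth *Hopx* was read in 45 of 45 type 1 cells (interval 92.1 to 100%), 6 of 11 type 2 cells (23.4 to 83.3%) and 22 of 36 cells of the rest (43.5 to 76.9%). Within the rest, it was higher in ciliated-list cells (285 CPM, 10 of 13 cells at equal depth) than in club-list cells (127.3 CPM, 9 of 15) and the other 8 cells (58.2 CPM, 3 of 8). *Hopx* lies at chr5:77086988-77115121 on GRCm38 and overlaps the antisense gene *Hopxos*, which is also in the table. Whether counting used strand is not given in the sources used here, so the reads of the pair cannot be told apart.

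*Etv5* and *Cebpa*, both factors of type 2 cells, had the opposite order of levels. *Etv5* stood at 451 CPM in type 2 cells (2920 reads), 0.476 CPM in type 1 cells (11 reads) and 1.33 CPM in the rest (36 reads). Single type 2 cells ranged from 0 to 1459 CPM around a median of 89.4 CPM, whereas no type 1 cell exceeded 4.84 CPM. The 36 reads in the rest came mostly from 1 cell, at chip column 3 and row 30, which held 66.7% of them and was high in the club and basal lists. The log2 ratio was -9.89 (-10.89 to -9.05) for type 1 against type 2 cells and 8.40 (7.93 to 8.92) for type 2 cells against the rest. At equal depth 9 of 11 type 2 cells (48.2 to 97.7%), 1 of 45 type 1 cells (0.0562 to 11.8%) and 4 of 36 cells of the rest (3.11 to 26.1%) held a read. The interval of the type 2 class did not meet those of the other classes, which describes the cells of this 1 mouse and is no test. Type 1 cells and the rest, neighbours in this order, had overlapping detection intervals.

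*Cebpa* stood at 56.8 CPM in type 2 cells (368 reads), 24.8 CPM in the rest (671 reads) and 0.303 CPM in type 1 cells (7 reads). Type 2 cells ran from 0 through a median of 44.2 CPM to 252 CPM, and the highest type 1 cell had 4.76 CPM. *Cebpa* was also read in club-list cells. Within the rest it was at 45.3 CPM in club-list cells (8 of 15 at equal depth), 1.45 CPM in ciliated-list cells (1 of 13) and 8.51 CPM in the other cells (1 of 8). The log2 ratio for type 1 cells was -7.55 (-8.88 to -6.50) against type 2 cells and -6.36 (-7.68 to -5.31) against the rest, and for ciliated-list cells against the other cells of the rest it was -4.55 (-5.56 to -3.71). Type 2 cells against the rest gave 1.20 (1.01 to 1.38), below the 4-fold threshold used for calls.

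Every type 2 cell held reads of at least 1 of these factors: 6 of 11 had both, 3 had *Etv5* alone and 2 *Cebpa* alone, with all reads counted. At equal depth the split was 5, 4 and 2. The deepest type 2 cell (1483749 reads) had 254 CPM of *Etv5* and no read of *Cebpa*. The type 2 cell with the lowest *Sftpc* had 5.25 CPM of *Etv5*, no read of *Cebpa* and the highest *Nkx2-1* of the class, 1905 CPM.

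*Gata6*, a zinc finger factor of the distal endoderm, was highest in type 1 cells, at 160 CPM (155 to 165), against 42.6 CPM in type 2 cells and 33.6 CPM in the rest. The log2 ratio was 2.25 (2.15 to 2.36) for type 1 cells against the rest and 1.91 (1.73 to 2.09) for type 1 against type 2 cells. Levels rested on few cells in every class. The median type 1 cell had no read and the highest 1655 CPM; 21 of 45 had a read, 13 of them above 20 CPM. Of the *Gata6* reads, 84.1% in type 2 cells and 52.8% in the rest came from 1 cell each, without which the levels were 8.81 and 16.6 CPM. At equal depth *Gata6* was read in 16 of 45 type 1 cells (21.9 to 51.2%), 3 of 11 type 2 cells (6.02 to 60.97%) and 6 of 36 cells of the rest (6.37 to 32.8%), and these intervals overlap for every pair of classes. In the cells left out for their mitochondrial share the levels were 34.8, 33.6 and 33.9 CPM in the same classes, a log2 ratio of 0.04 for type 1 cells against the rest. With all reads, 21 of 21 type 1 cells with *Gata6* also had *Nkx2-1*, which was read in 40 of the 45, and at equal depth 14 of 16 did. *Gata6* overlaps the gene *1010001N08Rik* on the opposite strand, which is also in the table.

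*Nkx2-1*, a homeodomain factor of the whole lung epithelium that activates surfactant genes, stood at 250 CPM in type 2 cells (238 to 263), 210 CPM in type 1 cells (204 to 216) and 72.6 CPM in the rest (69.4 to 75.9). It was the only factor of the set read in every type 2 cell, where it ran from 64.9 through a median of 137.3 CPM to 1905 CPM. Type 1 cells were less even, from 0 through a median of 58.3 CPM to 2899 CPM, with 40 of 45 holding a read. Both alveolar classes overlapped over most of this range, and their log2 ratio of -0.25 turned to 0.20 with the lower *Sftpc* cut and to 0.07 without the type 2 cell at column 20 and row 17. Cells of the rest had a median of 3.58 CPM and a highest value of 562 CPM. At equal depth it was read in 11 of 11 type 2 cells (71.5 to 100%), 33 of 45 type 1 cells (58.1 to 85.4%) and 17 of 36 cells of the rest (30.4 to 64.5%). As a description and not a test, the interval of type 2 cells lay above that of the rest, whereas type 1 cells overlapped with both. Against the rest, the log2 ratio was 1.53 (1.46 to 1.61) for type 1 and 1.78 (1.69 to 1.88) for type 2 cells. Within the rest *Nkx2-1* was read at equal depth in 5 of 13 ciliated-list, 8 of 15 club-list and 4 of 8 other cells. The levels were 102.4, 61.4 and 60.1 CPM, or 69.1, 42.5 and 24.1 CPM without the cell with most reads in each. The antisense gene *Gm26973* overlaps *Nkx2-1* and is in the table.

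**Figure D2:**
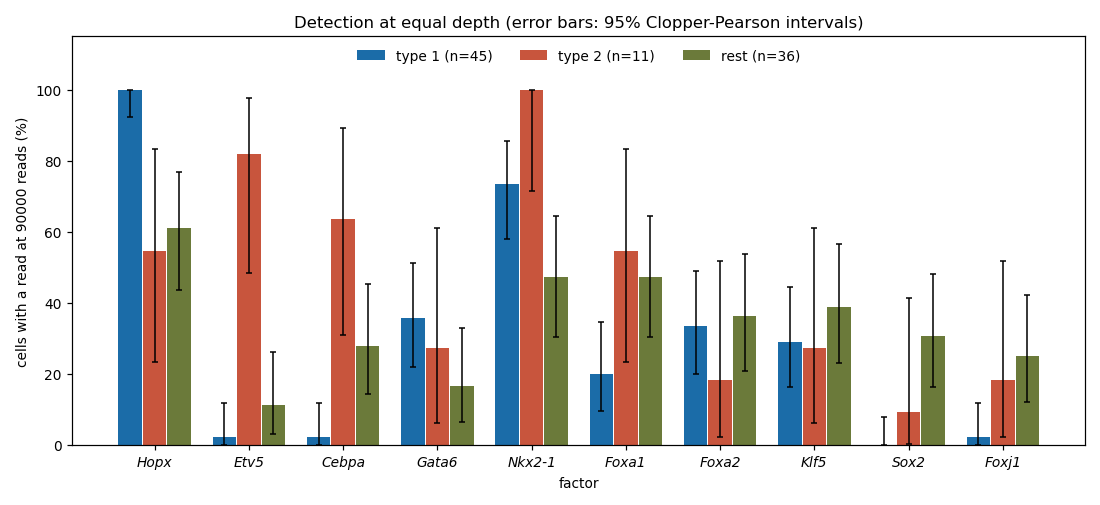
Share of cells, in %, with at least 1 read of each factor after 90000 reads were drawn from every cell, by class, with 95% Clopper-Pearson intervals. *Hopx* in type 1 cells and *Nkx2-1* in type 2 cells reach 100%, *Etv5* reaches 81.8% in type 2 cells against 2.22% in type 1 cells, and *Sox2* is at 0% in type 1 cells and 30.6% in the rest.

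The paralogous forkhead factors *Foxa1* and *Foxa2* were both patchy. *Foxa1* stood at 242 CPM in type 2 cells, 133.7 CPM in the rest and 99.3 CPM in type 1 cells. A read was present at equal depth in 6 of 11 (23.4 to 83.3%), 17 of 36 (30.4 to 64.5%) and 9 of 45 cells (9.58 to 34.6%) of these classes. No log2 ratio of *Foxa1* between classes reached 4-fold. In type 2 cells 65.5% of its reads came from the deepest cell, without which the level was 108.3 CPM.

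*Foxa2* had another order of levels, 302 CPM in type 1 cells, 188 CPM in the rest and 117.95 CPM in type 2 cells. In type 2 cells it was read in only 2 of 11 cells, at 3769 and 158 CPM, and the first, high in the club list too, held 85.9% of the reads, with 17.1 CPM left without it. In the rest 1 ciliated-list cell held 58.8% of the reads, and the level without it was 81.2 CPM. In type 1 cells 13 of 45 exceeded 20 CPM and the highest reached 2682 CPM. The levels of *Foxa2* moved with the part of the chip: type 1 cells had 426 CPM in columns 1 to 10 (11 of 26 cells with a read) and 137.98 CPM in columns 11 to 20 (8 of 19), and the rest had 52.8 and 415 CPM. The log2 ratio of type 1 cells to the rest was accordingly 3.01 in the first columns and -1.59 in the others, so no order of *Foxa2* between these classes is drawn.

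Where both forkhead factors were counted per cell, type 1 cells divided into 9 with both, 7 with *Foxa1* alone, 10 with *Foxa2* alone and 19 with neither. Above 100 CPM the numbers were 4 with both, 6 with *Foxa1* and 13 with *Foxa2* in all. At equal depth 25 of 45 type 1 cells and 11 of 36 cells of the rest had neither. In the ciliated-list cells 10 of 13 had 1 of the factors above 100 CPM and none had both.

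*Klf5*, a Krüppel-like zinc finger factor, stood at 144 CPM in type 1 cells, 102.97 CPM in the rest and 61.4 CPM in type 2 cells, without a 4-fold ratio between these classes. At equal depth it was read in 13 of 45 (16.4 to 44.3%), 14 of 36 (23.1 to 56.5%) and 3 of 11 cells (6.02 to 60.97%), and these intervals overlap for every pair of classes. The rest held it unevenly: 194 CPM in club-list cells (8 of 15), 21.3 CPM in ciliated-list cells (3 of 13) and 2.84 CPM in the other cells (3 of 8). Each of these levels leaned on 1 cell, and without it stood at 109.1, 1.42 and 0.965 CPM. Without their top cell the whole rest stood at 58.1 CPM and type 2 cells, where 1 cell held 88.2% of the reads, at 9.41 CPM. For ciliated-list cells against the other cells of the rest the log2 ratio was -2.66 (-2.90 to -2.43).

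*Sox2*, an SRY-box factor that specifies and maintains conducting airways, was nearly confined to the rest by level. It stood at 66.6 CPM there (1801 reads) against 0.216 CPM in type 1 cells (5 reads) and 0.154 CPM in type 2 cells (1 read). The highest type 1 cell had 2.75 CPM and the highest type 2 cell 5.75 CPM, while 9 of 36 cells of the rest exceeded 20 CPM. At equal depth 0 of 45 type 1 cells held a read, which by a limit of 3 counts allows a share of up to 6.67%, against 1 of 11 type 2 cells (0.230 to 41.3%) and 11 of 36 cells of the rest (16.3 to 48.1%). The log2 ratio to the rest was -8.27 (-9.89 to -7.04) for type 1 cells and, from 1 read, -8.75 (-14.06 to -6.27) for type 2 cells, and between the alveolar classes it was 0.49 with an interval of -2.67 to 6.05. The cell at chip column 3 and row 30, high in the club and basal lists, held 859 CPM and 53.03% of all *Sox2* reads of the rest, and the level without it was 32.6 CPM. Within the rest *Sox2* was read at equal depth in 6 of 15 club-list, 2 of 13 ciliated-list and 3 of 8 other cells, with levels of 96.1, 44.7 and 28.2 CPM, or 27.3, 7.31 and 11.95 CPM without the cell with most reads in each. *Sox2* lies inside the long noncoding gene *Sox2ot* on the same strand, which is not in the table.

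*Foxj1*, the forkhead factor of motile cilia, was read above 20 CPM in 8 of the 92 cells, all in the rest. It stood at 50.2 CPM in the rest, 0.216 CPM in type 1 cells (5 reads) and 0.772 CPM in type 2 cells (5 reads). The log2 ratio to the rest was -7.86 (-9.48 to -6.63) for type 1 and -6.02 (-7.65 to -4.80) for type 2 cells. Between type 1 and type 2 cells the log2 ratio was -1.84 (-3.96 to 0.28), from 5 reads in each class, so no order between them is drawn. Of the 12 markers of the ciliated list, which does not contain *Foxj1*, 11 were at most 11.02 CPM in type 1 cells, and *Sec14l3* alone stood at 2034 CPM there, so that gene makes up the summed ciliated level of 28.9 to 7050 CPM in single type 1 cells. In the 13 ciliated-list cells *Foxj1* stood at 162 CPM, from 0 through a median of 106.2 CPM to 1100 CPM. At equal depth it was read in 8 of 13 (31.6 to 86.1%) of them, 1 of 15 club-list cells (0.169 to 31.9%) and 0 of the 8 other cells, which by the same limit allows up to 37.5%. The cell with most *Foxj1*, at chip column 16 and row 35, held 46.9% of the reads, and without it the level was 92.5 CPM. In 6 of the 13 cells *Foxj1* was at 12.1 CPM or below, although their summed ciliated markers ranged from 4585 to 20401 CPM. One club-list cell, at chip column 1 and row 37, carried *Foxj1* at 110 CPM.

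**Figure D3:**
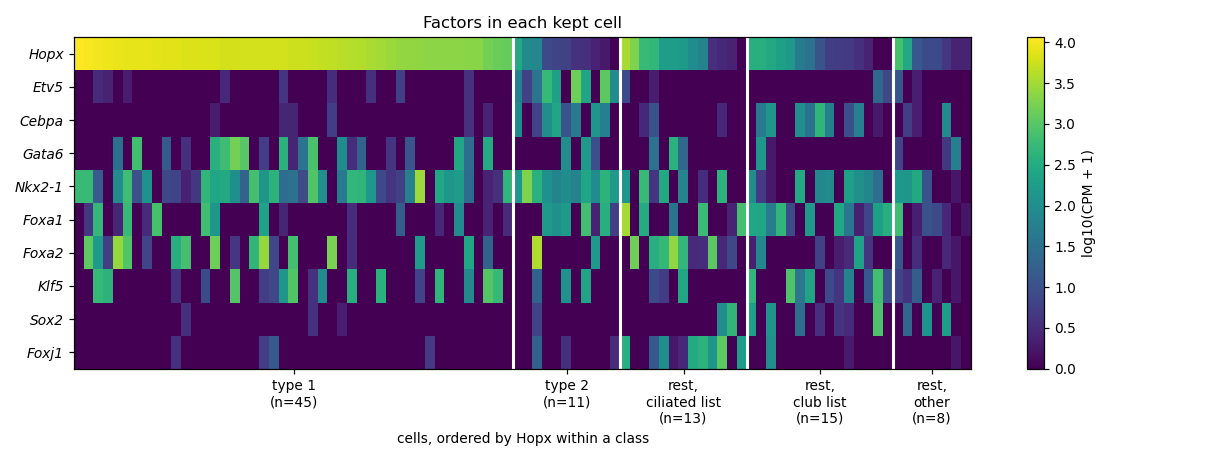
Each column is 1 of the 92 kept cells and each row 1 factor, coloured by log10(CPM + 1), with cells ordered by *Hopx* within type 1 (45), type 2 (11), ciliated-list (13), club-list (15) and other cells (8). *Hopx* runs through the type 1 block without a gap, *Etv5* and *Cebpa* fill the type 2 block in part, *Foxj1* stands in the ciliated-list block, and the forkhead, *Gata6* and *Klf5* rows are patchy in all blocks.

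The ciliated-list cells also had most of the *Foxa2* of the rest, 622 CPM against 18.3 CPM in the other 23 cells, a log2 ratio of 5.09 (4.93 to 5.24). A read of *Foxa2* was present in 10 of 13 cells and, at equal depth, in 7 (25.1 to 80.8%). The cell at chip column 11 and row 10 held 63.2% of these reads, and the level without it was 272 CPM. In the 4 ciliated-list cells left out for their mitochondrial share *Foxa2* had only 2 reads, and the log2 ratio was 0.20. *Foxj1* gave a log2 ratio of 4.68 (4.41 to 4.96), which rose to 9.73 when the cell with most reads was left out on both sides. *Foxj1* and *Foxa2* were read together in 8 of the 13 cells with all reads and in 3 at equal depth, and *Foxj1* and *Sox2* together in 1.

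Counted as a set, 3 of the 10 factors differed at least 4-fold between type 1 and type 2 cells, *Hopx* upward and *Etv5* and *Cebpa* downward. Over all 8832 genes that could be compared 39.6% were at least 4-fold higher, 13.5% at least 4-fold lower and 53.1% either, so the count of factors lay below the background. Between type 1 cells and the rest 5 factors passed 4-fold, *Hopx* and *Gata6* upward and *Cebpa*, *Sox2* and *Foxj1* downward, where 19.4% of all genes were higher, 20.9% lower and 40.3% either. Between type 2 cells and the rest 4 factors passed, *Etv5* upward and *Hopx*, *Sox2* and *Foxj1* downward, against 11.4% higher, 41.6% lower and 53.1% either. For ciliated-list cells against the other cells of the rest 5 passed, *Foxa2* and *Foxj1* upward and *Klf5*, *Cebpa* and *Etv5* downward, against 22.7% higher, 29.8% lower and 52.5% either. The *Etv5* ratio in the last comparison, -2.73 (-5.84 to -0.77), compares 2 reads with 34.

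At a 64-fold threshold, chosen after the values were seen, type 1 against type 2 cells kept *Hopx* upward (16.6% of all genes) and *Etv5* and *Cebpa* downward (3.7%). Type 1 cells against the rest kept *Cebpa*, *Sox2* and *Foxj1* downward (11.7%), with no factor upward (5.25%). Type 2 cells against the rest kept *Etv5* upward (1.94%) and *Sox2* and *Foxj1* downward (16.3%), and the ciliated-list comparison kept no factor (7.61% upward and 13.1% downward). The median size of the log2 ratio was 1.60 over the 10 factors and 2.25 over all genes for type 1 against type 2 cells, 1.89 and 1.54 for type 1 cells against the rest, 1.49 and 2.23 for type 2 cells against the rest, and 2.23 and 2.14 for ciliated-list cells. It was thus smaller over the factors than over all genes in the first and the third of these comparisons.

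**Figure D4:**
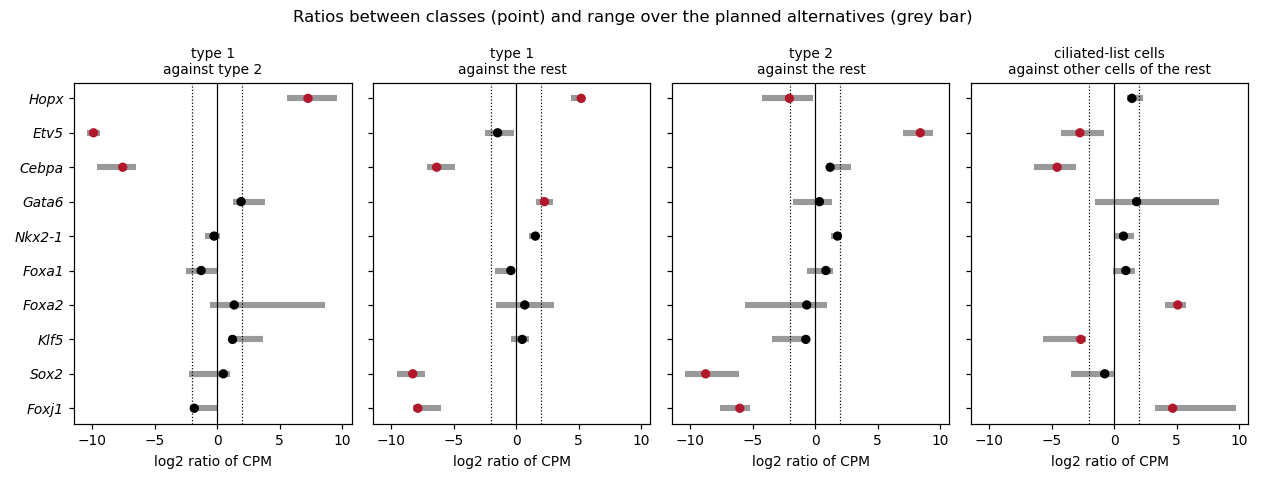
Log2 ratio of CPM of each factor in the 4 comparisons (point, red where at least 4-fold) with the range over the alternative settings (grey bar); dotted lines mark 4-fold. The *Hopx*, *Etv5*, *Cebpa*, *Sox2* and *Foxj1* ratios past 64-fold stay on 1 side of 0 in all of these settings, whereas the *Foxa2* ratio of type 1 against type 2 cells spans -0.59 to 8.64.

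Detection in at least a 0.5 share of a class's cells at equal depth was counted for the factors and for all genes. In type 1 cells 2 factors reached it, *Hopx* and *Nkx2-1* (8.43% of all genes did). In type 2 cells 5 did, *Nkx2-1*, *Etv5*, *Cebpa*, *Foxa1* and *Hopx* (12.6% of all genes), and in the rest *Hopx* alone (10.8%). These counts come from 1 random draw of reads. The share of type 2 cells expected to hold a read at 90000 reads was 46.1% for *Hopx*, below the 0.5 share, and 50.2% for *Foxa1*. The median cell held reads of 3 of the 10 factors in type 1, 4 in type 2 and 4 in the rest at equal depth, and of 4, 5 and 5 with all reads. A zero in a single cell therefore does not show that the factor was absent from it. Nor does a read show that a gene was expressed there: *Sftpc* was read in 45 of 45 type 1 cells and 36 of 36 cells of the rest. With at least 3 reads asked for, *Hopx* detection in type 2 cells at equal depth fell from 54.5% to 27.3%. Whether such reads were carried over from other cells was not tested.

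The 49 cells left out for their mitochondrial share were placed by the same cuts into 19 type 1, 16 type 2 and 14 other cells. *Hopx* stood at 4950 CPM in those type 1 cells, *Etv5* at 364 CPM in those type 2 cells and *Sox2* at 476 CPM in the rest of them, each the leading class of the factor in the kept cells too. *Klf5*, *Foxa1* and *Foxa2* had another leading class than in the kept cells. *Klf5* stood at 0.376 CPM in the type 1 cells left out, against 144 CPM in those kept, and at 224 CPM in the rest. *Foxa1* stood at 19.8 CPM in type 1 and 6.37 CPM in type 2 cells, and *Foxa2* at 64.5 and 66.6 CPM.

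**Figure D5:**
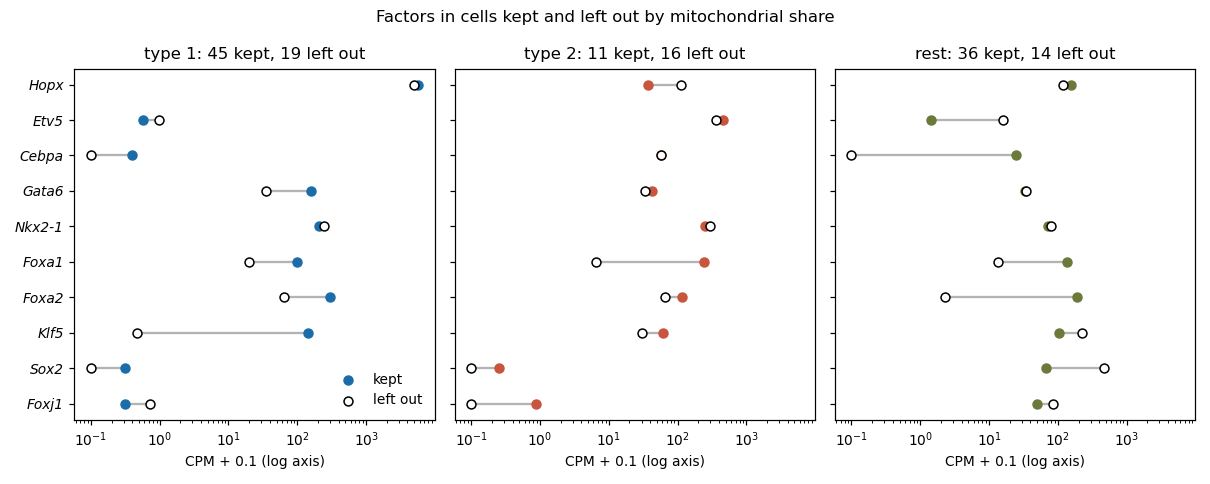
Level of each factor, as CPM + 0.1 on a log axis, in the kept cells (filled) and in the cells left out for their mitochondrial share (open), 1 panel per class. The pairs lie close for *Hopx* and *Nkx2-1* in type 1 cells and for *Etv5*, *Cebpa* and *Nkx2-1* in type 2 cells, and far apart for *Klf5* in type 1 cells (144 and 0.376 CPM).

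Other factors of the same lineages, from 4 lists of 7 genes each, were set beside the 10. Of the airway and basal list 4 of 6 genes with at least 10 CPM were at least 4-fold lower in type 1 cells than in the rest (20.9% of all genes were): *Trp63* of basal cells (0.259 against 140.6 CPM), the ETS factors *Elf3* (22.4 against 115.3 CPM) and *Ehf* (0.259 against 75.2 CPM), and *Klf4* (0.216 against 70.9 CPM). The same comparison of type 1 with type 2 cells also gave 4 of 6 lower (13.5% of all genes), with *Tfcp2l1* (11.8 against 295 CPM) in place of *Trp63*. Single cells carried part of this. Without the top cell of each class *Elf3* stood at 1.21 CPM in type 1 and 1.39 CPM in type 2 cells, below 4-fold, and *Tfcp2l1* at 0.133 and 70.9 CPM. Of the ciliated list 3 of 6 genes in the table reached 10 CPM. In ciliated-list cells 2 were at least 4-fold higher than in the other cells of the rest (22.7% of all genes). These were *Rfx2*, whose product binds with Foxj1 at cilia genes, at 64.3 against 0.360 CPM, and *Myb*, known from multiciliated cell formation, at 210 against 0.103 CPM. The remaining gene, *Rfx3*, stood at 30.7 against 14.4 CPM, below 4-fold, and at 32.3 CPM in type 2 cells. Of the distal list 4 genes reached 10 CPM, and 2 of them, *Id2* and *Cebpd*, were at least 4-fold lower in type 1 cells than in both other classes. The others, *Nfib* and *Cebpb*, were higher in type 1 than in type 2 cells, with log2 ratios of 1.51 and 1.57, below 4-fold. Against the rest their log2 ratios were 0.52 and -1.16. *Id2*, an inhibitor of basic helix-loop-helix factors, stood at 18.5 CPM in type 1 cells, 147 CPM in type 2 cells and 91.4 CPM in the rest. Without the top cells these levels were 6.12, 66.9 and 67.5 CPM. Within the rest *Id2* was at 305 CPM in ciliated-list cells, above type 2 cells, and at 7.67 CPM in the other cells. Of the broad epithelial list *Foxp2*, a forkhead factor of the distal lung, had the order 194 CPM in type 2 cells, 38.5 CPM in type 1 cells and 0.481 CPM in the rest. In type 1 cells 98.2% of its reads came from 1 cell, and the levels without the top cells were 48.1, 0.698 and 0.234 CPM.

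The genes whose pattern over the 92 cells was most like that of a factor were found by Pearson's r on log2(CPM + 10) among 8598 genes; the cells share 1 mouse and 1 chip, and r describes the classes as much as the cells. For *Hopx* they were *Rtkn2* (r = 0.842), *Ager* (0.836) and *Fam189a2* (0.829), which fell to 0.105, 0.305 and -0.334 within the 45 type 1 cells. For *Etv5* they were *Hc* (0.825), *Sfta2* (0.765) and *Scd1* (0.729), and for *Cebpa* *Sftpb* (0.660), *Cxcl15* (0.649) and *Ctsc* (0.559). For *Foxj1* they were *Vpreb3* (0.812), *Ccdc108* (0.734) and *Traf3ip1* (0.712), and for *Sox2* *1700073E17Rik* (0.612), *Vangl1* (0.508) and *Adh7* (0.502). No gene reached 0.5 for *Nkx2-1*, *Foxa1*, *Foxa2*, *Gata6* or *Klf5*, whose highest values were 0.366, 0.444, 0.427, 0.459 and 0.401. By Spearman's rho *Hc* stayed first for *Etv5* (0.556), whereas *Ager* came first for *Hopx* (0.797). The genes named for *Sox2* ranked 140, 293 and 25 by this measure and those for *Foxj1* 16, 59 and 36.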

How the data were processed

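Raw read counts per gene, without normalization, were deposited for 17136 genes in the single cells of 1 mouse. Per the labels, the authors used Trim Galore and FastQC before HISAT2 alignment to GRCm38, and featureCounts for the counts. Tool versions, and whether counting used strand, are not given in the sources used here. From these counts, CPM was computed over all reads of a cell or class, cells with a mitochondrial share of 0.15 or more (37 mt- genes) were left out, and classes were formed from *Ager* and *Sftpc* as in the stated rule. Per the authors, only chip sites seen to hold a single cell were used. Doublets were not called here.

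The factors and the lists were chosen with earlier results of these data known. Named genes are the 10 factors, the genes that cut the classes, the driver and reporter, the 3 genes most like each factor, and genes of the other-factor lists past 4-fold. Positions came from GENCODE vM21, where 94.0% of the symbols were found. A ratio against a class with no read used 3 counts over that class. Calls were at least 4-fold among genes with at least 10 CPM over the kept cells. Depth ranged from 142003 to 2170760 reads per kept cell. Thinning drew 90000 reads per cell without replacement (seed 20261127). A share of 0 is given with the limit of 3 counts of its total. Other intervals are 95% Poisson for levels, conditional binomial for ratios and Clopper-Pearson for shares. Those of levels and ratios take only read counts into account, and those of shares only numbers of cells. The ratio calculation was tested on simulated data. Alternatives changed the library size, the weight of cells, the cuts, the mitochondrial limit, the chip columns, the thinning and the likeness measure. Calculations ran in Python 3.11.15 (numpy 2.4.6, pandas 2.3.3, scipy 1.17.1), and plots were drawn with matplotlib 3.10.9.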

Additional observations from a re-analysis of the deposited data

Results flagged for a closer look

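The 49 cells with a mitochondrial share of 0.15 or more lie outside the comparisons among kept cells, yet held reads of all 10 factors above the limit of 3 counts, in 19 type 1, 16 type 2 and 14 other cells by the same cuts. Over these cells the levels were 216 CPM for *Nkx2-1*, 14.6 CPM for *Foxa1*, 49.4 CPM for *Foxa2*, 34.3 CPM for *Gata6*, 64.6 CPM for *Klf5*, 2448 CPM for *Hopx*, 101.4 CPM for *Etv5*, 15.1 CPM for *Cebpa*, 119.6 CPM for *Sox2* and 21.5 CPM for *Foxj1*. Their median depth was 292455 reads against 553963 reads in the kept cells.

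By class, *Hopx* was again read in 19 of 19 type 1 cells, at 4950 CPM, against 111.9 CPM in type 2 cells and 118.8 CPM in the rest. *Etv5* stood at 364 CPM in type 2 cells, with 13 of 16 positive at equal depth, and 0.877 CPM in type 1 cells, and *Cebpa* had 249 reads in type 2 cells and 0 in both other classes. *Sox2* had 0 reads in type 1 and type 2 cells and 476 CPM in the rest, and *Foxj1* was read in 4 of 4 ciliated-list cells, at 375 CPM. Several levels differed from those of the kept cells. *Sox2* in the rest was higher (476 against 66.6 CPM), and *Cebpa* there had no read (24.8 CPM in the kept cells). *Klf5* had only 3 reads in type 1 cells (0.376 CPM against 144 CPM in the kept cells), *Foxa2* 9 reads in the rest (2.16 against 188 CPM), and *Foxa1* 6.37 CPM in type 2 cells (against 242 CPM). The part of the mitochondrial share in these differences was not tested.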

How the results depend on the processing

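Of 17 ratios of at least 4-fold, 17 kept their direction under every alternative not added after seeing the data and 14 stayed past 4-fold. The exceptions were *Gata6* in type 1 cells against the rest (lowest 1.62) and *Etv5* in ciliated-list cells (-0.77). *Hopx* in type 2 cells against the rest was also an exception (nearest 0 at -0.16). Some of these alternatives could not change a ratio and were no check of it. The lower *Ager* cut and the higher *Sftpc* cut moved no cell, because no cell lay between the old and new cuts. Both ways of placing cells past both cuts had no cell to place. The lower CPM limit for the marker lists left the numbers of ciliated-list and other cells of the rest unchanged. In the left-out cells alone, an alternative added after seeing the data, *Foxa2* in ciliated-list cells gave 0.20, *Gata6* in type 1 cells against the rest 0.04 and *Hopx* in type 2 cells against the rest -0.09. The 3 factors past 4-fold between type 1 and type 2 cells became 6 without the cell with the most reads of the gene, 7 in chip columns 1 to 10, 6 with a mitochondrial limit of 0.10 and 8 at 2-fold, and the 4 between type 2 cells and the rest became 7 with the limit of 0.10. At 64-fold the 5 between type 1 cells and the rest became 3, and the 5 of the ciliated-list comparison 0. The limit of 0.10 left 19 type 1 and 6 type 2 cells, and no limit gave 27 type 2 cells. Factors detected in at least a 0.5 share of the rest rose from 1 to 5 without thinning and to 3 with the limit of 0.10, and those of type 2 cells fell from 5 to 3 at 0.5 times the depth and with no limit, and to 2 at 3 reads or more. The causes were not tested. Leaving the 50 most abundant genes out of the library size moved the median log2 ratio of all genes from 0.93 to 0.61 between type 1 and type 2 cells and the factors past 4-fold from 3 to 4 there and from 4 to 3 between type 2 cells and the rest. No paired analysis was possible because all cells come from 1 mouse. At 90000 reads per cell a factor of low level can be missed in a single cell.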

Other observations

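Several cells were high in more than 1 marker list, and their factors are given here as values. The cell at chip column 3 and row 30, high in the club and basal lists, had *Sox2* at 859 CPM, *Klf5* at 685 CPM, *Foxa1* at 206 CPM, *Nkx2-1* at 28.8 CPM and *Etv5* at 21.6 CPM, and no read of *Hopx*. The type 2 cell at column 16 and row 6, also high in the club list, held reads of 8 of the 10 factors, led by *Foxa2* at 3769 CPM, from 174055 reads. The ciliated-list cell at column 9 and row 33, also high in the club list with *Scgb1a1*, the club cell secretoglobin, at 376780 CPM, held 8 of 10 as well. The cell at column 17 and row 10, high in the AT1, club and basal lists, had no factor above 73.5 CPM and *Hopx* at 1.53 CPM. Whether such cells are doublets was not tested.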
